A study of Homo sapiens with 6 samples.

Results

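The 10 genes described here handle zinc and other metal ions in the cell: the metallothioneins MT1E, MT1F, MT1G, MT1M, MT1X and MT2A, the transcription factor MTF1, and the zinc transporters SLC30A1, SLC39A10 and SLC39A14. They were chosen by name, as the rows of the gene count table with these symbols, and are 10 of its 36459 gene symbols. The cells were of PC9, a line of EGFR-mutant lung cancer of human origin, from which RNA was sequenced. Parental cells received no erlotinib, a drug that inhibits EGFR signalling, and persister cells were those left when 15 µM of it had been present for 6 days. Each condition had 3 libraries. The parental libraries came from 3 independent cultures and the persister libraries were pooled from 9. All cells are of 1 cancer line, and the drug, its duration and survival of the treatment differ together between the conditions. In bulk RNA, a change in the share of cells expressing a gene and a change in RNA per cell cannot be told apart.

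Metallothioneins are small cysteine-rich proteins that bind zinc, copper and cadmium, and their genes lie side by side in 1 cluster. MTF1 is the zinc-sensing transcription factor that binds metal response elements in their promoters, and it also acts on SLC30A1. SLC30A1 (ZnT1) exports zinc across the plasma membrane. SLC39A10 (ZIP10) and SLC39A14 (ZIP14) belong to the ZIP family, which brings metal into the cytosol, and ZIP14 also carries iron that is not bound to transferrin, and manganese.

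In the GENCODE 44 annotation of GRCh38 the metallothionein genes of chromosome 16 lay between MT4, which starts at 56565073, and MT1X, which ends at 56684196. Along the plus strand the members came in the order MT2A (chr16:56608584-56609497, ENSG00000125148), MT1E (chr16:56625475-56627112, ENSG00000169715), MT1M (chr16:56632659-56633981, ENSG00000205364), MT1F (chr16:56657731-56660698, ENSG00000198417), MT1G (chr16:56666730-56668065, ENSG00000125144) and MT1X (chr16:56682470-56684196, ENSG00000187193), of which MT1G is on the minus strand. MTF1 and the transporters lay on other chromosomes, with MTF1 at chr1:37809574-37859592 (minus strand, ENSG00000188786), SLC30A1 at chr1:211571568-211579161 (minus strand, ENSG00000170385) and SLC39A10 at chr2:195575977-195737702 (plus strand, ENSG00000196950).

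The promoters of 4 members are shown because MTF1 acts through the metal response element, whose core letters can be searched. Each is a RefSeq window of GRCh38.p14, from 250 bases before to 50 bases after the transcription start, written 5′ to 3′ on the strand of the gene. Capitals mark the 7 letters of each match to TGCACNC or TGCGCNC on either strand, so that a match on the opposite strand reads as GNGTGCA or GNGCGCA. RefSeq windows were matched for 5 of the 10 members, which were MT2A, MT1X, MTF1, SLC30A1 and SLC39A10. The members MT1E, MT1F, MT1G, MT1M and SLC39A14 had no window in the table used.
MT2A, chr16:56608334-56608633, plus strand: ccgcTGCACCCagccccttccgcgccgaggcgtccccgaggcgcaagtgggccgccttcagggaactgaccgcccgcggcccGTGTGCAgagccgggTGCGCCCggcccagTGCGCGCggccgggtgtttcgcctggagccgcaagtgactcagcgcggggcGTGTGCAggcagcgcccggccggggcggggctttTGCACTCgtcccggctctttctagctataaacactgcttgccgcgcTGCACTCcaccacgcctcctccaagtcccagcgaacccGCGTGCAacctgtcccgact
MT1X, chr16:56682220-56682519, plus strand: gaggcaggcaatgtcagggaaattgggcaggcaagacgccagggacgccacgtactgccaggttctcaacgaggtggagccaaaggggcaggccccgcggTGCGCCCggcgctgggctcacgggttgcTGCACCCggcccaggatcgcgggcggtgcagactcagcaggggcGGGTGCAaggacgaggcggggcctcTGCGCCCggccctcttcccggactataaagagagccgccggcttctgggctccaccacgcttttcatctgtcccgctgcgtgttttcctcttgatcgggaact
SLC30A1, chr1:211579112-211579411, minus strand: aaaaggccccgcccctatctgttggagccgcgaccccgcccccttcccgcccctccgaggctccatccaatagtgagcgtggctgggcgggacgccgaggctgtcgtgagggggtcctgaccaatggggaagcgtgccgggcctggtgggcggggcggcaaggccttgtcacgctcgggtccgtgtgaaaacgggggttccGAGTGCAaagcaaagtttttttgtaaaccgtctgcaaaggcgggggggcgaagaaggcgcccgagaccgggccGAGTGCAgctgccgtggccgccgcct
SLC39A10, chr2:195656976-195657275, plus strand: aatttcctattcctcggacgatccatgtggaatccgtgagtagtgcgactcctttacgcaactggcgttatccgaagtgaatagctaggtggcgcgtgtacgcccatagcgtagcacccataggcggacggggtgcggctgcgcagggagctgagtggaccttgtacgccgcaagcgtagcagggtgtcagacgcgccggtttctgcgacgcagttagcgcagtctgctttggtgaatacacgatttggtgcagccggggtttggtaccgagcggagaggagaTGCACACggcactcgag

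The MT2A window held 8 core matches, in 56 of its 300 bases, and 0.02% of all 35116 promoter windows held as many. MT1X held 4, as did or exceeded 0.601% of windows, and SLC30A1 held 2, as did or exceeded 8.6%. Of the 2 SLC39A10 windows in the RefSeq set used, the downstream one held 1 match, 34 bases after its start, and the upstream one held none. The GENCODE gene begins further upstream, at 195575977, and that start was not searched. MTF1 also held none. At least 1 match was present in 29.6% of all windows, so a single match is common. Matches nearest the start began 8 bases upstream in MT2A, 53 bases upstream in MT1X and 25 bases downstream in SLC30A1. These letters describe the windows, and binding was not measured.

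**Figure D1:**
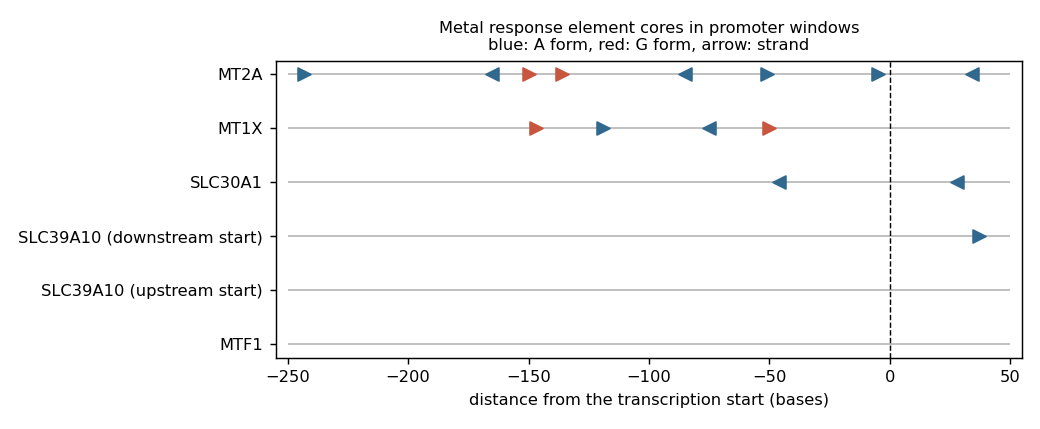
Positions of metal response element cores in the RefSeq promoter windows of 5 members, with distance from the transcription start in bases on the x axis and 1 row per window (SLC39A10 has 2 windows in the set used). Arrowheads point along the strand of the match and are blue for TGCACNC and red for TGCGCNC. MT2A holds 8 and MT1X 4, against 2 for SLC30A1 and none for MTF1.

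The libraries held between 29476725 and 34893782 gene counts. Values are CPM, counts scaled to a common library total after TMM normalization, and a count of 3 corresponded to between 0.0871 and 0.103 CPM. Fold changes are persister over parental, from edgeR's quasi-likelihood test on all genes that passed its expression filter, with a limit of 0.01 on the Benjamini-Hochberg adjusted p. The change was wide across the genome, since 56.8% of the 14626 genes tested were past this limit, 28.7% higher and 28.1% lower in persister cells, and in 71.3% of genes the CPM of the conditions did not overlap. The epithelial markers EPCAM, KRT8, KRT18, KRT19, CDH1 and EGFR were all detected and summed to 6197–6572 CPM in parental and 4228–4378 CPM in persister libraries, with CDH1 and EGFR past the limit and higher in persister cells and the other 4 past it and lower. Fibroblast markers, mostly COL1A1, summed to 10.4–11.0 CPM in parental and 27.4–30.8 CPM in persister libraries, leukocyte markers, mostly CD68, to 75.2–77.1 and 19.7–22.9 CPM, and endothelial markers, of which PECAM1 was lower and past the limit, to 8.28–8.996 and 3.73–4.27 CPM. COL3A1 (fibroblasts) and CD3E (T cells) were at 0 in all 6 libraries, and the part of these markers in the results was not tested.

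Of the 10 members, 8 passed the filter and 5 of these were past the limit. MT1F, MTF1 and SLC39A14 were higher in persister cells, and MT2A and SLC39A10 were lower. MT1E, MT1X and SLC30A1 were not past the limit. The share of tested members past it, 62.5%, is read against 56.8% of all genes, and the 6 of 8 members whose conditions did not overlap against 71.3%, so neither count sets the members apart from other genes. Directions differed within both families: MT2A fell while MT1F rose, and SLC39A10 fell while SLC39A14 rose.

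MT2A, the main metallothionein transcript in these cells, had 119.7, 125.9 and 116.5 CPM in parental libraries 1, 2 and 3, and 89.0, 102.5 and 88.6 CPM in persister libraries 1, 2 and 3. Every persister library was below every parental library. The mean fell from 120.7 ± 4.77 to 93.4 ± 7.94 CPM (SD, n = 3), which is 1.29-fold lower. The log2 fold change was -0.37 (SE 0.0584, 95% interval -0.50 to -0.24, edgeR adjusted p = 0.000199).

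MT1F moved the other way, from a much lower level. It had 2.38, 2.47 and 2.08 CPM in parental and 3.60, 3.21 and 3.19 CPM in persister libraries, and the conditions did not overlap. The log2 fold change was 0.52 (SE 0.130, edgeR adjusted p = 0.00420). The call was lost with DESeq2 (adjusted p = 0.0206) and, in edgeR, without parental replicate 3, persister replicate 1, persister replicate 2 or persister replicate 3 (adjusted p = 0.0215, 0.0190, 0.01002 and 0.0114), always with the same direction.

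MT1E and MT1X, both inducible metallothioneins of the cluster, had higher means in persister libraries without passing the limit. MT1E had 7.0, 6.37 and 7.01 CPM in parental and 7.53, 8.92 and 8.42 CPM in persister libraries, so the conditions stood apart by a small gap. Its log2 fold change was 0.29 (SE 0.0913, 95% interval 0.087 to 0.49, edgeR adjusted p = 0.0157), and without persister replicate 1 the adjusted p was 0.00848. MT1X had 14.6, 13.6 and 12.2 CPM in parental and 13.9, 17.3 and 16.1 CPM in persister libraries. Persister library 1 lay below parental library 1, so the conditions overlapped. The log2 fold change of MT1X was 0.23 (SE 0.0919, edgeR adjusted p = 0.0421).

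MT1G and MT1M were at or near the limit of detection and were not tested. MT1G had 2, 2 and 0 counts in parental and 5, 4 and 0 counts in persister libraries. MT1M had 0, 2 and 1 counts in parental and 2, 0 and 0 counts in persister libraries. A difference in either gene was not detectable at this depth.

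**Figure D2:**
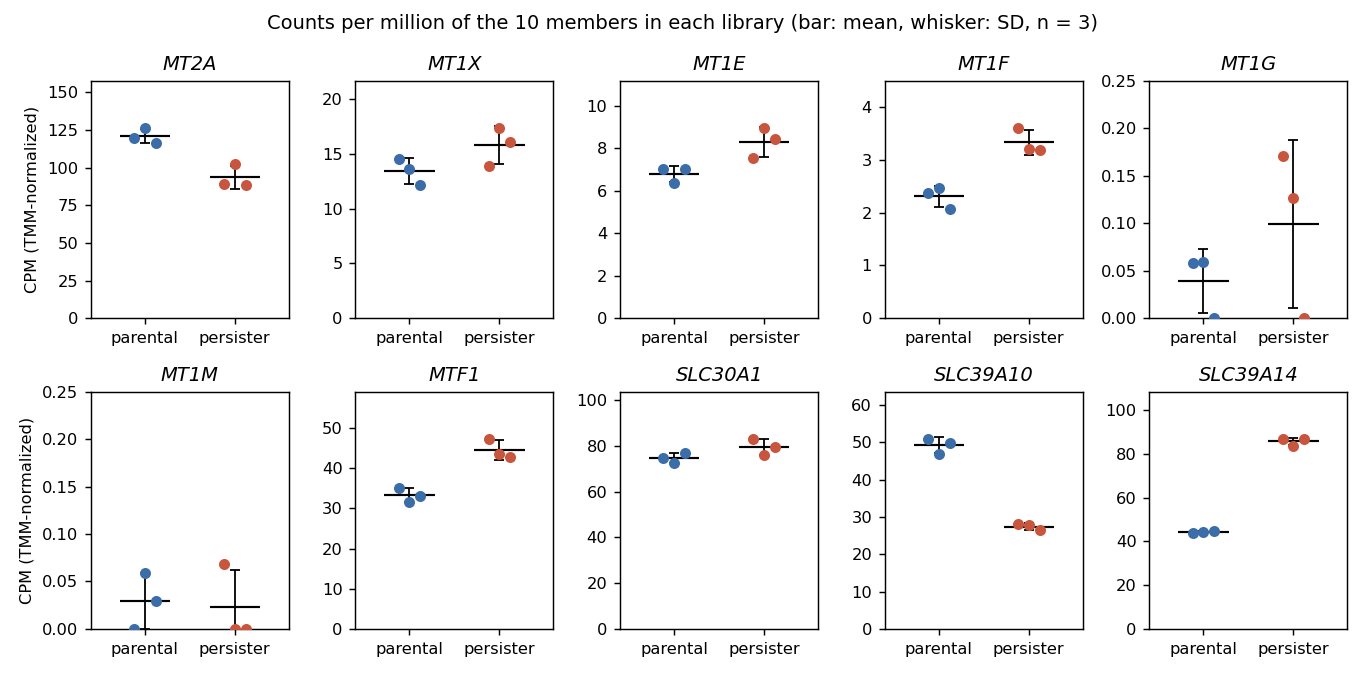
CPM (TMM-normalized, linear y axis from 0, with its own scale in each panel) of the 10 members in the 3 parental (blue) and 3 persister (red) libraries, with the mean as a bar and the SD as a whisker. MT2A and SLC39A10 are lower and MT1F, MTF1 and SLC39A14 higher in every persister library than in any parental library, while MT1X and SLC30A1 overlap and MT1G and MT1M stay below 0.2 CPM.

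Metallothionein transcripts resemble each other, which bears on how reads were divided among them. Some 31-base stretches in the main transcript of each gene were also present in annotated transcripts of other genes. The share was 31.5% in MT2A, 54.0% in MT1X, 15.3% in MT1E and 13.9% in MT1F. Some of the other genes were pseudogenes such as MT2P1, which had 0 counts in every library. MT1X shared most with ENSG00000259827, which held 136 of its 202 shared stretches, is outside the lists and was not examined. Because of this sharing, the counts of single metallothioneins are uncertain, and the size of the error was not measured. For SLC30A1, SLC39A10 and SLC39A14 the share was 0, and for MTF1 it was 2.1%.

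The sum over the 6 member metallothioneins does not depend on how reads were divided within them, but can depend on reads divided with other genes. It was 144, 148 and 138 CPM in parental libraries and 114, 132 and 116 CPM in persister libraries. The persister libraries were all below the parental ones, and the sum was 1.19-fold lower in persister cells, with 143 ± 5.32 CPM in parental and 121 ± 9.76 CPM in persister cells (SD, n = 3). The log2 ratio of the sums, taken as the difference of mean log2 CPM, was -0.25, given without a test. With all listed metallothioneins and their pseudogenes added it was -0.26.

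MT2A took a smaller part of the sum, and MT1X, MT1E and MT1F larger parts, in the persister libraries. MT2A made up 84.2 ± 0.811% of it in parental and 77.2 ± 0.927% in persister cells (SD, n = 3). The share of MT1X went from 9.37 ± 0.676% to 13.04 ± 0.846%, that of MT1E from 4.75 ± 0.409% to 6.86 ± 0.338%, and that of MT1F from 1.61 ± 0.0877% to 2.77 ± 0.360%. In each of these 4 genes the shares did not overlap between the conditions. The shares are parts of the same sum, so a smaller share of MT2A means larger shares of the others together.

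A ratio of counts within a library does not depend on the normalization. On the log2 scale, with 0.5 added to each count, the ratio to MT2A was higher in persister cells by 0.90 for MT1F, 0.66 for MT1E and 0.60 for MT1X. All 3 persister libraries were above all 3 parental libraries for each of these genes. The exact permutation test (two-sided) gave p = 0.1 for each, the smallest that 3 against 3 allows. For MT1F and MT1E this outcome was fixed by their CPM, which stood apart upward while that of MT2A stood apart downward. The test therefore adds nothing for them. MT1X by itself overlapped in CPM, and all 3 ratios share the lower MT2A count. MT1A, a metallothionein of the cluster outside the members, had a ratio to MT2A that was lower by 0.24 on average, with overlapping conditions (exact permutation p = 0.2, log2 difference -0.24). MT1A itself fell from 3.297 ± 0.381 to 2.15 ± 0.306 CPM (SD, n = 3, log2 fold change -0.61, SE 0.151, edgeR adjusted p = 0.00410). The MT1A call was lost with DESeq2 (adjusted p = 0.0106) and, in edgeR, without parental replicate 2, persister replicate 1 or persister replicate 3 (adjusted p = 0.0150, 0.0190 and 0.0133).

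**Figure D3:**
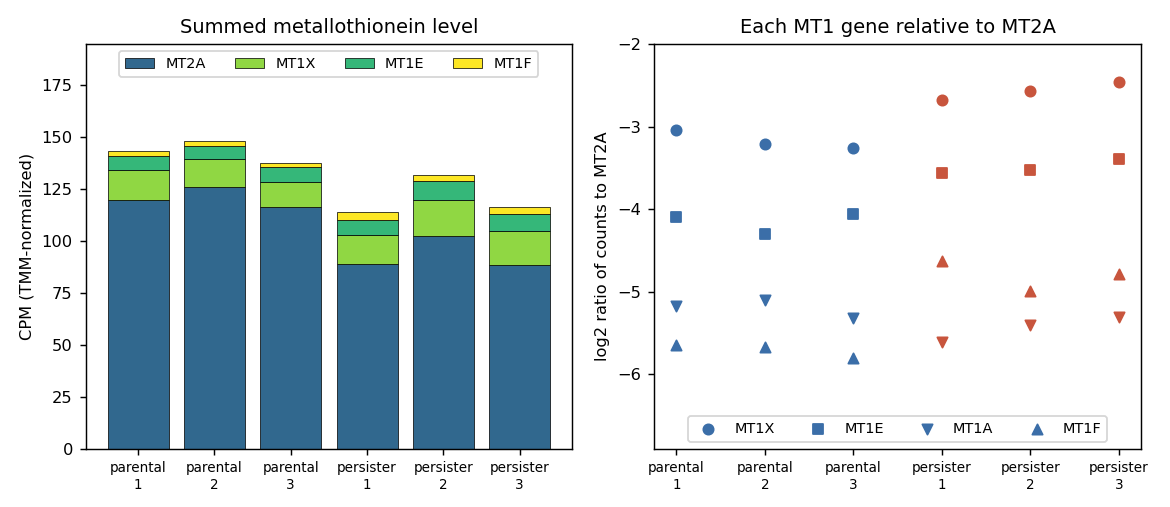
Left, stacked CPM (TMM-normalized) of MT2A, MT1X, MT1E and MT1F in each library, where MT1G and MT1M are too low to draw. Right, log2 ratio of the count of each MT1 gene to that of MT2A, with marker shapes for genes, blue for parental and red for persister libraries. The stack is lower in the persister libraries, and the ratios of MT1X, MT1E and MT1F are higher there, while those of MT1A overlap.

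Of the other metallothionein genes and pseudogenes listed, 14 were in the table and 1, MT1A, passed the filter. Of the rest, 7 were at 0 in every library and 6 had at most 11 counts in any library. MT3 and MT4, which are known from brain and stratified epithelium, were among those not tested.

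MTF1, the metal-sensing factor, had 35.1, 31.6 and 33.0 CPM in parental and 47.2, 43.6 and 42.7 CPM in persister libraries. The conditions did not overlap. MTF1 rose 1.34-fold, from 33.2 ± 1.78 to 44.5 ± 2.41 CPM (SD, n = 3), a log2 fold change of 0.42 with an SE of 0.0567 (edgeR adjusted p = 6.26e-05). Of the 3 members whose promoter windows held 2 or more core matches, MT2A was lower and past the limit. MT1X and SLC30A1 were not past it, with log2 fold changes of 0.23 and 0.089. These 3 genes are too few to set against the 56.8% of all genes past the limit. MT1E, MT1F, MT1G, MT1M and SLC39A14 had no window and are not covered by this count. Whether MTF1 acted on any of these genes was not tested.

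SLC30A1, the plasma membrane zinc exporter, had 74.6, 72.4 and 76.9 CPM in parental and 82.9, 75.9 and 79.3 CPM in persister libraries. Persister library 2 lay within the parental range, so the conditions overlapped. The log2 fold change was 0.089 (SE 0.0452, 95% interval -0.011 to 0.19, edgeR adjusted p = 0.104), an interval that leaves room for no change and for a rise of 0.19 on the log2 scale.

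SLC39A14 (chr8:22367278-22434129, plus strand, ENSG00000104635) showed the largest change among the members. It had 43.8, 44.1 and 44.7 CPM in parental and 86.8, 83.8 and 86.7 CPM in persister libraries. The libraries of each condition lay close together and far from those of the other. The mean rose 1.94-fold, from 44.2 ± 0.461 to 85.8 ± 1.68 CPM (SD, n = 3), with a log2 fold change of 0.96 (SE 0.0393, 95% interval 0.87 to 1.04, edgeR adjusted p = 5.67e-09). By p it ranked 338 among the 14626 genes tested.

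SLC39A10 changed by nearly as much in the opposite direction. It had 50.9, 46.9 and 49.97 CPM in parental and 28.1, 27.8 and 26.4 CPM in persister libraries, with a wide gap between the conditions. The mean fell from 49.3 ± 2.09 to 27.4 ± 0.896 CPM (SD, n = 3), which is 1.80-fold lower, with a log2 fold change of -0.84 (SE 0.0505, 95% interval -0.96 to -0.73, edgeR adjusted p = 1.01e-07). It ranked 882 by p. The ratio of SLC39A14 to SLC39A10 in CPM was 0.861, 0.941 and 0.895 in parental and 3.09, 3.01 and 3.28 in persister libraries, so the SLC39A14 count was the lower of the pair in every parental library and the higher in every persister library.

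Set among the zinc transporters, SLC39A14 and SLC39A10 had the largest and second largest absolute log2 fold changes of the 18 ZnT and ZIP genes tested. The next was 0.43 in size. Of the 9 other ZIP genes tested, 5 were higher, 2 lower and 2 not past the limit, with a median log2 fold change of 0.16 against -0.0061 over all genes, of which 56.8% were past the limit. The count of higher genes rested on the scaling and on single libraries. It was 1 with library size only, 2 with upper quartile scaling, 1 without parental replicate 3 or persister replicate 3, and 2 without persister replicate 1 or 2, while 2 were lower in each of these. Among them SLC39A1, a plasma membrane ZIP, and SLC39A7, which releases zinc from the endoplasmic reticulum, were lower (log2 fold change -0.39 and -0.31, edgeR adjusted p = 0.000111 and 0.000121), and SLC39A6 was higher (0.34, edgeR adjusted p = 0.000338). SLC39A11 was higher by 0.16 on the log2 scale (edgeR adjusted p = 0.00414) and lost its call with upper quartile scaling, with library size only, and without parental replicate 3, persister replicate 1, persister replicate 2 or persister replicate 3 (adjusted p = 0.0212, 0.0388, 0.0272, 0.0129, 0.0126 and 0.0243). Of the 6 other ZnT genes tested, 1 was higher, 1 lower and 4 not past the limit, against the same 56.8% of all genes, with a median of -0.055. The genes past it were SLC30A6 (0.31, edgeR adjusted p = 5.38e-05) and SLC30A5 (-0.23, edgeR adjusted p = 0.00125), whose proteins pair to load zinc into the secretory pathway.

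**Figure D4:**
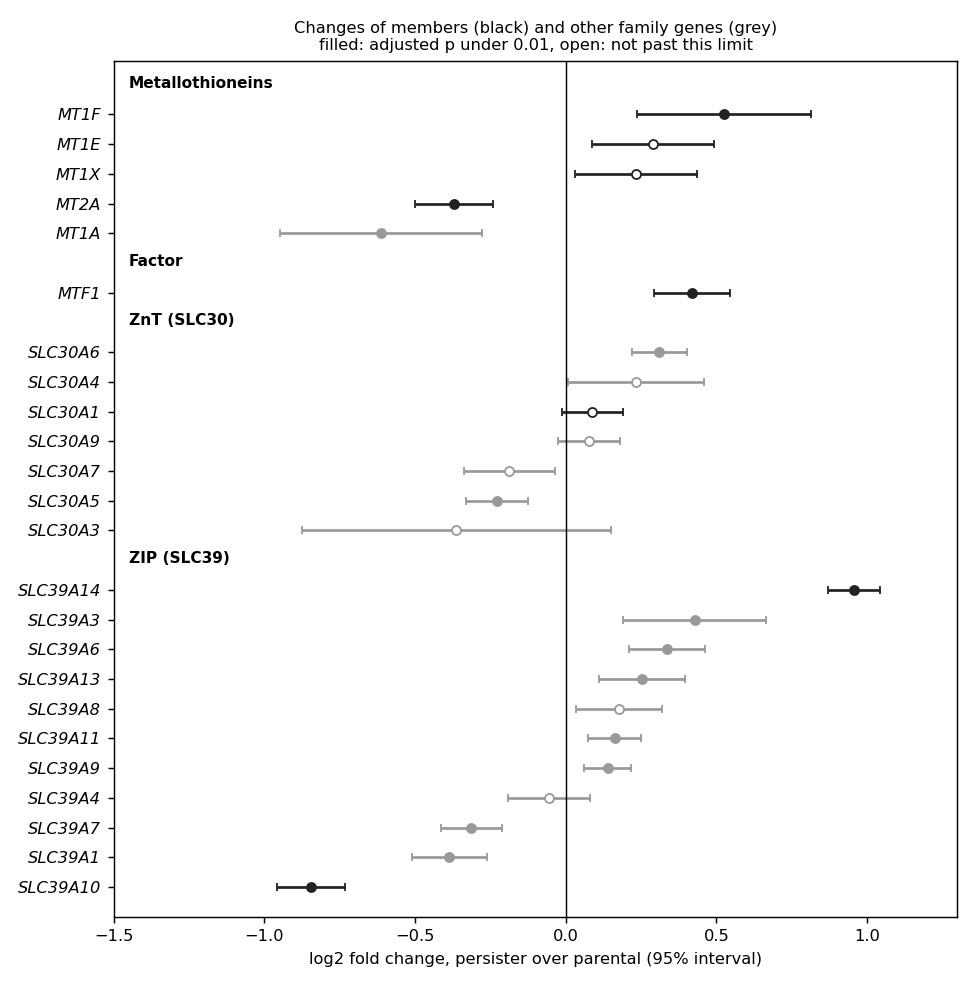
Log2 fold change, persister over parental, with its 95% interval from edgeR, for the tested members (black) and the other tested metallothionein, ZnT and ZIP genes (grey). Filled points are past the adjusted p limit of 0.01 and open points are not. SLC39A14 at 0.96 and SLC39A10 at -0.84 lie at the ends of the zinc transporters.

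Levels can be compared between genes only per length, here as TPM, a length-corrected abundance computed from the transcript counts and annotated lengths. Full lengths were used, with no allowance for fragment length. MT2A-201 has 401 bases and MTF1-201 has 7937, so the order between short metallothioneins and longer genes is uncertain. In parental cells MT2A was highest at 573 ± 28.99 TPM, followed by MT1X at 62.6 ± 5.13 TPM (SD, n = 3). MT1E and SLC30A1 came next, at 25.2 ± 1.68 and 24.1 ± 0.753 TPM, and did not differ beyond their spread. SLC39A10 and SLC39A14 were at 19.8 ± 0.755 and 18.7 ± 0.457 TPM, with overlapping ranges, though SLC39A10 was the higher within each parental library. MTF1 and MT1F were at 8.74 ± 0.709 and 8.72 ± 0.694 TPM, which also overlapped, and MT1G and MT1M were below 1 TPM in every library.

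In persister cells the order of the first pair was kept, with MT2A at 459 ± 31.4 and MT1X at 75.5 ± 5.94 TPM (SD, n = 3). SLC39A14 came next at 38.3 ± 2.08 TPM, above MT1E at 31.5 ± 2.71 TPM and SLC30A1 at 26.6 ± 1.87 TPM, of which the latter 2 overlapped. MT1F was at 14.5 ± 1.26 TPM, above MTF1 at 11.5 ± 0.535 TPM. SLC39A10, at 10.9 ± 0.741 TPM, overlapped MTF1 in range but was below it within each persister library.

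At the level of transcripts, 13 transcripts of members passed the filter and 3 were past the limit, which is 23.1% against 7.80% of all transcripts tested. They were the main transcripts MTF1-201 (log2 fold change 0.40, edgeR adjusted p = 0.00960), SLC39A10-201 (-0.82, edgeR adjusted p = 0.00114) and SLC39A14-204 (0.93, edgeR adjusted p = 0.000157), all of genes past the limit in the same libraries. The higher share is therefore no result apart from those genes. With the replicate block, 1 of the 13 was past the limit, as were 813 of all 54499 transcripts. MT2A-201, which held nearly all MT2A counts, changed by -0.39 on the log2 scale (edgeR adjusted p = 0.0147). Transcript usage was past the limit in 1.93% of the genes tested, and in 0 of the 4 members with more than 1 tested transcript, MT1E, MT1F, SLC39A10 and SLC39A14, by edgeR's diffSpliceDGE. None of the 4 had an unadjusted p under 0.05, the lowest being 0.435 in MT1F. The MT1F retained intron transcript MT1F-202 had 14, 22 and 15 counts in parental and 11, 5 and 13 in persister libraries. Its mean share of MT1F counts was 21.6% in parental and 9.10% in persister cells. In simulated data the usage test recovered 62% of genes in which 1 transcript changed by 1 on the log2 scale, so changes can be missed. The simulation gave every transcript a dispersion (squared relative spread beyond counting noise) of 0.01, with no error in dividing reads. Transcripts can vary more, as SLC39A10-202 did with 100, 0 and 20 counts in parental libraries, and the 62% need not hold for them.

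SLC39A14-203 and SLC39A14-204 are built from 9 exons each and differ in the choice between alternative exons of 170 bases, at chr8:22409946-22410115 in the former and chr8:22412037-22412206 in the latter. Of the counts of this pair, SLC39A14-203 took 8.29%, 7.47% and 6.11% in parental and 8.24%, 6.52% and 4.40% in persister libraries. The conditions overlapped (7.29 ± 1.102% against 6.38 ± 1.92%, SD, n = 3, exact permutation p = 0.6, two-sided), and SLC39A14-204 was the main form in every library. In SLC39A10, the retained intron transcript SLC39A10-209 had 38, 47 and 8 counts in parental libraries and 0 in every persister library. It did not pass the filter and was not tested, and parental library 3 held far fewer counts than parental libraries 1 and 2. Other SLC39A10 transcripts also varied widely within a condition. SLC39A10-202 had 100, 0 and 20 counts in parental and 0, 0 and 58 in persister libraries. SLC39A10-205 had 20, 40 and 0 in parental libraries and 0 in every persister library. How reads were divided among these transcripts was not tested.

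Among 12237 genes outside the lists with a mean log2 CPM above 1, those whose log2 CPM ran most like the summed member metallothioneins over the 6 libraries included MYO19 (Pearson r = 0.992) and PODXL (r = 0.991). The 6 points share their libraries and fall into the 2 conditions, so these values are descriptions.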

How the data were processed

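Bulk RNA-seq of 3 parental and 3 persister libraries was used, grouped by the sample labels. The authors made poly-A libraries, processed reads with bases2fastq and FASTP, and assigned them with Kallisto (kallisto 0.46.1 in the submitters' processing notes) to Ensembl transcripts of GRCh38.p13. The authors deposited estimated counts as whole numbers, without normalization, per gene symbol and per transcript. How surely reads were divided between similar transcripts enters no test. The other laboratory's libraries that the authors analysed jointly with these in sleuth were not analysed here.

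The gene-level fit used edgeR 4.0.16 in R 4.3.3 (filterByExpr, TMM, glmQLFit and glmQLFTest, no block, adjusted p under 0.01 over all 14626 genes), and transcripts likewise, with usage tested by diffSpliceDGE. Standard errors were taken as |log2 fold change| over the square root of F. TPM was computed from the transcript counts and lengths of GENCODE 44. Of 188753 transcripts, 167067 were matched to it, with 95.8% of the transcript counts. The others entered neither TPM nor the counts summed from transcripts. Of 36459 gene symbols, 27685 were matched to GENCODE 44 by their current symbol. Scripts were tested on simulated data. Same-numbered libraries of the conditions had correlations of deviations of 0.124, 0.0236 and 0.0215, and the other pairs had -0.117 to 0.0971. Values this small cannot show whether the numbers pair the libraries. With the numbers as a block, 8671 genes were past the limit, against 8307 without. Libraries of a condition differed by more than sampling noise (chi-square per degree of freedom 3.41 to 20.0) and were counted separately. The edgeR p-values and intervals rest on the spread between 3 libraries per condition, moderated toward a trend over all genes.

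The members and the lists were chosen with earlier results of these data known. Named genes are all 10 members, up to 4 genes per other list past the limit with the smallest p, the defining cell type markers, and the 3 most like genes in pattern, of which 1 is not reported here; MT3, MT4, MT2P1, SOD1 and the transcripts named were chosen after their values were seen. Alternatives were other normalizations and filters, DESeq2 1.42.0, limma 3.58.1 voom, counts summed from transcripts, a replicate block, other limits and each library left out. Figures were drawn with matplotlib 3.10.9.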

Additional observations from a re-analysis of the deposited data

How the results depend on the processing

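The 8 tested members kept the direction of their log2 fold change in all 120 values from 15 alternatives, and 114 stayed on the same side of the limit. MT2A, MTF1, SLC39A10 and SLC39A14 stayed past it in every one and MT1X and SLC30A1 past it in none, MT1F lost its call in 5 and MT1E gained one in 1. The number of members past the limit was 5, and 4 with DESeq2, 7 at an adjusted p under 0.05, and 0 of the 8 when a fold above 2 was also asked (1691 genes in all, against 8307). Leaving out 1 library at a time gave 4 to 5 members, 7054 to 8407 genes, and 11 to 19 of the 31 or 32 tested genes of the other metallothionein, zinc transporter and copper lists, against 19; the lowest was without persister replicate 3. With upper quartile scaling and with library size only, both chosen after seeing the data, 14 of the 31 were past the limit (6 higher and 8 lower, and 5 higher and 9 lower), against 11 higher and 8 lower. Transcripts past the limit numbered 4252, 8902 at 0.05 and 1549 to 2649 with 1 library left out, of which 2 to 3 were of members. Genes with a change in usage numbered 204, 130 with CPM above 1 in 3 libraries, and 321 at 0.05. The replicate block gave 5 members, 8671 genes, 20 list genes, 813 transcripts, of which 1 was of a member, and 100 genes with a change in usage. The fit with fewer libraries has fewer degrees of freedom; otherwise the cause was not tested. The log2 ratio of the summed metallothioneins ran from -0.31 to -0.21 over all alternatives. Depth limits MT1G and MT1M, and shared sequence limits the counts of single metallothioneins.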

Other observations

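Metallothioneins also bind copper, and copper-handling genes included larger changes than any member. Of 15 tested, 5 were higher, 4 lower and 6 not past the limit, with a median log2 fold change of 0.065 against -0.0061 over all genes, of which 56.8% were past it. With upper quartile scaling or library size only, 3 were higher and 4 lower. STEAP4, a metalloreductase, fell from 51.2 ± 2.52 to 20.7 ± 0.694 CPM (SD, n = 3, log2 fold change -1.31, SE 0.0537, edgeR adjusted p = 5.64e-09). ATP7A, the copper-exporting ATPase mutated in Menkes disease, fell from 34.7 ± 2.81 to 15.8 ± 1.11 CPM (log2 fold change -1.14, SE 0.0734, edgeR adjusted p = 1.81e-07). SLC31A2 (CTR2), a copper transporter of endosomes and lysosomes, rose from 18.3 ± 1.17 to 39.9 ± 1.35 CPM (log2 fold change 1.12, SE 0.0577, edgeR adjusted p = 3.18e-08), and SLC31A1 (CTR1), the copper importer of the plasma membrane, rose by a smaller step, from 72.5 ± 1.15 to 87.3 ± 1.105 CPM (log2 fold change 0.27, SE 0.0373, edgeR adjusted p = 7.83e-05). SOD1, a copper and zinc enzyme, had 156 ± 4.69 CPM in parental and 157 ± 5.13 CPM in persister cells (log2 fold change 0.0027, SE 0.0401, edgeR adjusted p = 0.957).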
